A study of Equus caballus with 25 samples.

Results

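SAA, DEFB4B and IL1R2 are 3 innate defence genes of the horse that were followed in the endometrium, the lining of the uterus, over the oestrous cycle. They were found by the RefSeq transcripts printed beside the array's probes: SAA had 1 probe, DEFB4B had 2 and IL1R2 had 1, which makes 4 of 43603 probes. The genes were chosen by their measured levels and detection on days 0, 3, 8, 12 and 16. Differences between days in their levels are therefore given as a description, with no test.

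SAA encodes serum amyloid A, an acute-phase protein of high-density lipoprotein that the liver, and in many species also epithelia, make in response to the cytokines IL-1, IL-6 and TNF. DEFB4B encodes a beta-defensin, a small cationic peptide of epithelia and phagocytes that damages microbial membranes. IL1R2 encodes the type 2 receptor for IL-1, which binds the cytokine without signalling and so acts as a decoy beside the signalling receptor IL1R1 and the soluble antagonist IL1RN. In the uterus of the mare, innate defence is known for the clearance of bacteria and semen in oestrus, when the cervix is open.

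The study took endometrial biopsies through the cervix from 5 normally cycling Bavarian Warmblood mares, each sampled on all 5 days, in different cycles, and no treatment is named. Day 0 was the day of ovulation, day 3 fell in the early, day 8 in the mid and day 12 in the late luteal phase, and day 16 at the start of the next ovulatory phase. Total RNA of each of the 25 biopsies was hybridised to a one-colour Agilent array. A biopsy holds epithelium, glands, stroma, vessels and immune cells together, so fewer cells of a type and less RNA per cell cannot be told apart in any value below.

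The 25 arrays lay on 7 slides read on 4 scan days. The days were not spread evenly over them. All day 0 arrays lay on slides 4 to 7, read on scan days 3 and 4, while other days also had arrays on slides 1 to 3. Differences from day 0 therefore cannot be fully told apart from slide and scan day. Their 75th percentile of signal ranged from 698 to 3701 intensity units, between 70.3% and 88.1% of spots were well above background, and 0 spots were saturated. Levels are given as log2 signal minus the array's 75th percentile, so that a level of 0 is the 75th percentile of that array and a difference of 1 is a doubling. The brightest array was that of mare 4 on day 16. Of the cell type markers that could be measured, ESRP1 of epithelium and LUM and DCN of stroma were well above background on every array. So were PECAM1 of endothelium, HBA2 of red blood cells and the immune cell markers CD14, CD68, MMP9, GNLY, GZMB and CCL5, but not LILRA. All 4 probes were bright enough to be tested, as were 35770 probes in all.

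SAA was low around ovulation and on day 3 and high in the mid and late luteal phase. On day 0 mares 1 to 5 had levels of -7.28, -5.34, -5.64, -6.21 and -0.37. On day 3 they had -5.05, -6.91, -6.58, -5.04 and -4.30. Mare 5 was far above the other mares on day 0, while all 5 mares were low on day 3. On day 8 the levels were -2.47, -1.20, 3.11, -1.25 and -0.70, and on day 12 they were -3.54, 0.28, -1.97, -1.39 and 0.33. On day 16 mares 1, 2 and 3 had -4.47, -4.45 and -4.35, whereas mares 4 and 5 had 2.82 and 1.68. Every biopsy of days 8 and 12 thus lay above every biopsy of day 3, and day 16 split into 3 low and 2 high mares with nothing between them.

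The day means of SAA ranked day 3 lowest at -5.58 ± 1.12, then day 0 at -4.97 ± 2.68, day 16 at -1.75 ± 3.68, day 12 at -1.26 ± 1.63 and day 8 highest at -0.50 ± 2.12 (SD, n = 5 mares each). Day 8 exceeded day 3 by 5.08 (33.7-fold), and the difference was 2.58 or more in each of 5 mares. Day 12 exceeded day 3 by 4.32 (20.0-fold), again in 5 of 5 mares. The groups did not overlap in either comparison, a pattern that 6.06% of all tested probes showed for day 8 over day 3 and 6.49% for day 12 over day 3. Each of the 4 slides that held both day 8 and day 3 had 1 array of each, and the day 8 array was 2.58 to 5.72 higher. For mares 1, 2 and 5 both arrays lay on the same slide, so these values repeat their paired differences. Slide 6 set mare 4 on day 8 against mare 3 on day 3.

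Between days next to each other, the other steps in SAA stayed within the spread between mares. Day 3 minus day 0 was -0.61, with an SD of 2.41 between the 5 paired differences, and mare 5 set the sign: without its day 0 biopsy the difference was 0.54. Day 12 minus day 8 was -0.76 (SD 2.62) and day 16 minus day 12 was -0.50 (SD 3.43), and in both steps 2 mares were higher on the later day and 3 lower. Day 12 was higher than day 0 by 3.71 (SD 1.87) in 5 of 5 mares, day 8 was higher than day 0 by 4.47 (SD 3.24) in 4 of 5, and day 16 was higher than day 3 by 3.82 (SD 2.99) in 5 of 5. In these comparisons the groups overlapped. Day 16 was also higher than day 0 by 3.22 (SD 3.33) in 5 of 5 mares, with overlap. That last difference was 1.76 without mare 4, 4.37 without the day 0 biopsy of mare 5, and 1.85 with normexp, a correction that models the local background and lifts dim signals. The probe was well above background on 4, 4, 5, 5 and 5 of 5 arrays on days 0, 3, 8, 12 and 16.

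**Figure D1:**
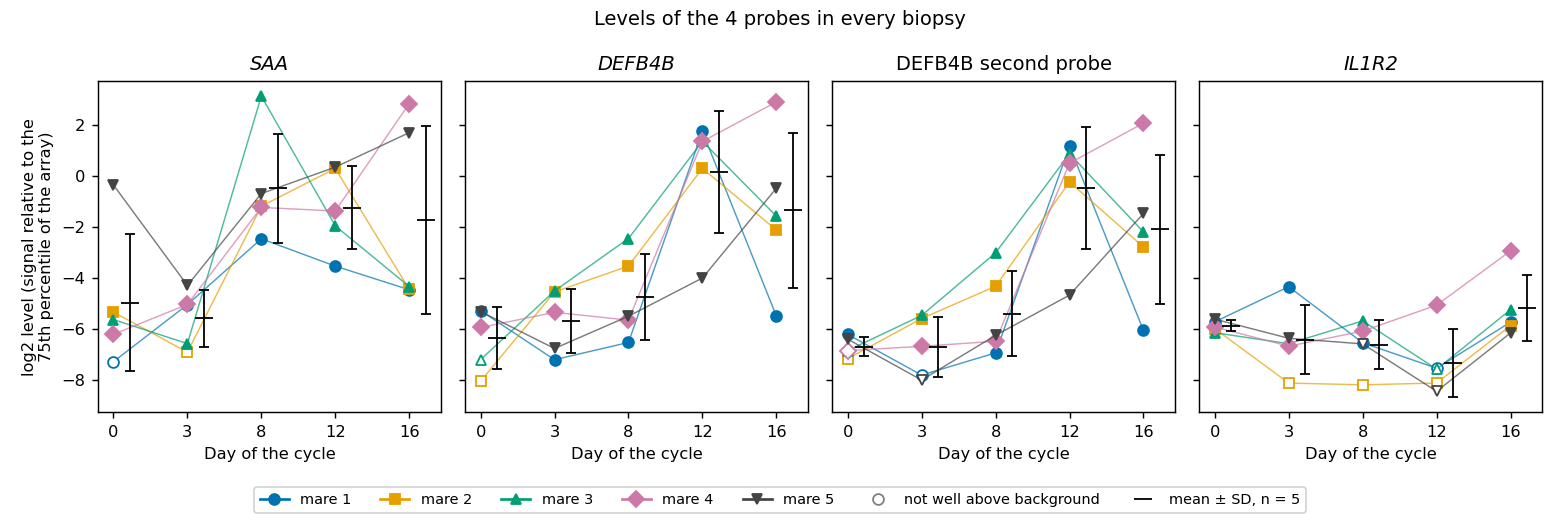
Log2 level (vertical axis, relative to the 75th percentile of the array) of the 4 probes against day of the cycle, with 1 coloured line per mare, open symbols for arrays not well above background, and mean ± SD of 5 mares beside each day. SAA is higher on day 8 than on day 3 in every mare, both DEFB4B probes peak on day 12 or 16 with mare 5 low on day 12, and the highest IL1R2 level, -2.95, is that of mare 4 on day 16.

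DEFB4B was low up to day 8 and highest on days 12 and 16. On day 0 its first probe had levels of -5.29, -8.05, -7.21, -5.95 and -5.32 in mares 1 to 5. On day 3 the levels were -7.21, -4.56, -4.52, -5.35 and -6.77, and on day 8 they were -6.53, -3.54, -2.46, -5.66 and -5.50. Up to day 8 no mare exceeded -2.46, and mares 2 and 3 were the highest on days 3 and 8. On day 12 the levels were 1.73, 0.28, 1.34 and 1.34 in mares 1 to 4 but -4.01 in mare 5. On day 16 they were -5.50, -2.13, -1.59, 2.88 and -0.50, so that mare 1 was back at its level of day 0 while mare 4 had the highest level of all 25 biopsies.

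From low to high, the day means were -6.36 ± 1.22 on day 0, -5.68 ± 1.25 on day 3, -4.74 ± 1.68 on day 8, -1.37 ± 3.02 on day 16 and 0.14 ± 2.38 on day 12 (SD, n = 5 mares each). Day 12 exceeded day 8 by 4.88 (29.4-fold) in 5 of 5 mares, although mare 5 on day 12 lay below mares 2 and 3 on day 8. Day 12 exceeded day 0 by 6.50 (90.4-fold) and day 3 by 5.82 (56.4-fold) in 5 of 5 mares. In these last 2 comparisons the groups did not overlap, as for 7.46% of tested probes for day 12 over day 0. Within the 3 slides that held both days, day 12 was 3.80 to 8.26 above day 8. Each of these slides held 1 array of each day from the same mare, so these are the paired differences of mares 1, 2 and 3. Mares 4 and 5 had the 2 days on different slides. The smallest difference in any mare was 1.49.

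Between neighbouring days at the low end, the first DEFB4B probe differed little: day 3 was 0.68 above day 0 (SD of the paired differences 2.41), and the sign turned to -0.36 with slide as a term and to -0.40 with normexp. Day 8 was 0.94 above day 3 (SD 0.86) in 4 of 5 mares. Day 16 minus day 12 was -1.50 (SD 4.19), with 3 mares lower and 2 higher, and ran from -2.76 without mare 5 to -0.07 without mare 1. Day 16 was higher than day 0 by 5.00 (SD 3.28) in 4 of 5 mares, and by 2.90 with normexp. This probe was well above background on 3 of 5 arrays on day 0 and on all 5 of each later day.

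The second DEFB4B probe, matched to the same transcript, followed the first over the 25 arrays (r = 0.990). Its day means were -6.70 ± 0.38, -6.71 ± 1.19, -5.41 ± 1.66, -0.49 ± 2.40 and -2.10 ± 2.91 on days 0, 3, 8, 12 and 16 (SD, n = 5 mares each). It was well above background on only 2 of 5 arrays on day 0 and 3 of 5 on day 3, against 3 and 5 for the first probe. By this probe day 12 exceeded day 8 by 4.92, and all 5 biopsies of day 16 lay above all 5 of day 0, as they did for 1.78% of tested probes. The first probe did not separate those days, because mare 1 had -5.50 on day 16 and -5.29 on day 0.

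IL1R2 was dim throughout, and its highest day was the last. Mares 1 to 5 had levels of -5.72, -5.99, -6.15, -5.93 and -5.62 on day 0, the tightest day of any of the 4 probes with an SD of 0.21. On day 3 they had -4.35, -8.12, -6.58, -6.68 and -6.37, and on day 8 they had -6.54, -8.19, -5.69, -6.09 and -6.59. The mares differed more on these days than on day 0, with mare 2 lowest on both. On day 12 the levels were -7.54, -8.12, -7.58, -5.07 and -8.45, and on day 16 they were -5.74, -5.87, -5.25, -2.95 and -6.16. Mare 4 stood above the other mares on both of these days.

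The probe was well above background on 4, 4, 3, 1 and 5 of 5 arrays on days 0, 3, 8, 12 and 16. Its signal was 480 intensity units in mare 4 on day 16 and between 4.57 and 122 on the other 24 arrays. The day means ranked day 12 lowest at -7.35 ± 1.33, then day 8 at -6.62 ± 0.95, day 3 at -6.42 ± 1.35, day 0 at -5.88 ± 0.21 and day 16 at -5.19 ± 1.30 (SD, n = 5 mares each). Each step in that order was smaller than the SD between mares of the more variable day.

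At the end of the luteal phase IL1R2 was higher on day 16 than on day 12 in every mare. The mean difference was 2.16, with single mares between 1.81 and 2.33. The groups overlapped, since mare 4 on day 12 lay above the other 4 mares on day 16. On day 12 only 1 of 5 arrays was well above background, so that neither the size of the difference nor its likeness between mares was measured against detected signal, and with normexp the difference was 0.59. Day 16 was also above day 8 by 1.43 in 5 of 5 mares. The mean difference from day 0 was 0.69, with 3 of 5 mares higher, 0.12 without mare 4 and -0.21 with normexp.

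**Figure D2:**
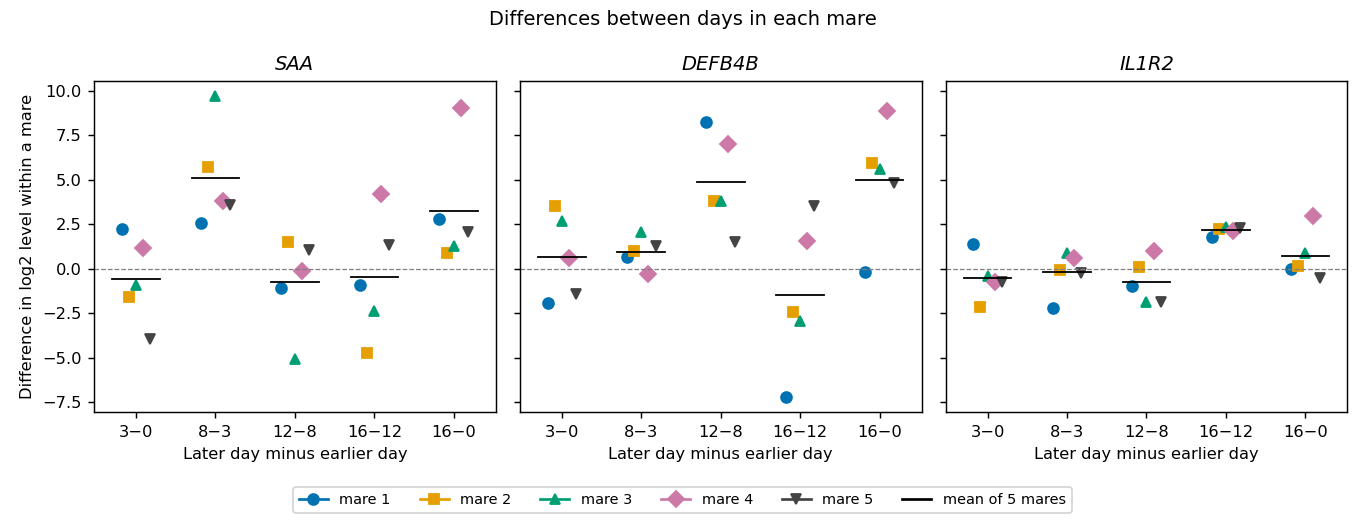
Difference in log2 level within each mare (vertical axis) for 5 pairs of days, later day minus earlier day, with 1 symbol per mare and a bar at the mean of 5 mares. On day 16 minus day 12 the mares run from -7.22 to 3.51 for DEFB4B and from -4.73 to 4.20 for SAA, while for IL1R2 all 5 are above 0 with 4 of the 5 day 12 arrays not well above background.

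The timing of the peak differed between mares. SAA was highest on day 8 in mares 1 and 3, on day 12 in mare 2 and on day 16 in mares 4 and 5. DEFB4B was highest on day 12 in mares 1, 2 and 3 and on day 16 in mares 4 and 5, by both probes. IL1R2 was highest on day 16 in mares 2, 3 and 4, on day 3 in mare 1 and on day 0 in mare 5. Mares 4 and 5 thus had their highest SAA and their highest DEFB4B in the same biopsy, that of day 16, and so did mare 2 on day 12, but not mares 1 and 3.

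SAA and DEFB4B were among the most variable probes of the array within a day. The SD between mares, pooled over the 5 days, was 2.41 for SAA, 2.03 for the first and 1.93 for the second DEFB4B probe and 1.12 for IL1R2, against a median of 0.45 over all tested probes. SAA's value was higher than that of 99.9% of tested probes and that of IL1R2 higher than 94.9%. These SDs include arrays that were not well above background. Differences between day means made up 47.6% of the variance of SAA, 66.1% of that of DEFB4B and 34.5% of that of IL1R2. Differences between mare means made up 19.3%, 6.59% and 27.0% in the same order. These raw shares are not corrected for the number of days or mares, and some share arises even without any difference. No such share over all tested probes is given, and the genes were chosen by their levels on these days.

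Whether the 3 genes deviated together from their day means was examined over the 25 biopsies, which share 5 mares. These deviations come from the levels by which the genes were chosen, and the permutations treat the biopsies of a mare as independent. The p-values are therefore given as a description. SAA and DEFB4B had r = 0.36 (permutation p = 0.183, rho = 0.163 with p = 0.474). SAA and IL1R2 had r = 0.302 (permutation p = 0.175, rho = 0.222 with p = 0.306), and DEFB4B and IL1R2 had r = 0.289 (permutation p = 0.250, rho = 0.151 with p = 0.506). Adjusted over the 3 pairs by Benjamini-Hochberg, each p was 0.250 for r and 0.506 for rho, in two-sided permutations of the biopsies within days. No call is drawn from these values, for or against a link between the genes.

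These correlations leaned on few biopsies. Without the 2 biopsies farthest from the median, r was 0.136 for SAA and DEFB4B, 0.102 for SAA and IL1R2 and 0.176 for DEFB4B and IL1R2. Without mare 4 on day 16 alone, the 3 values were 0.15, 0.084 and 0.035. In the scan day with 7 arrays r was 0.511, 0.666 and 0.103 for the 3 pairs, and in that with 12 arrays 0.527, 0.265 and 0.594, while the other 2 scan days held 3 arrays each, too few for a value. With the mare as a block, r of SAA and IL1R2 was 0.502, and with mare and slide r of SAA and DEFB4B was 0.602. In fits with these terms, the permutations shuffled values from which mare or slide had already been removed, without allowing for that. Their p-values come out too small, so they are not given and no call is drawn from them.

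**Figure D3:**
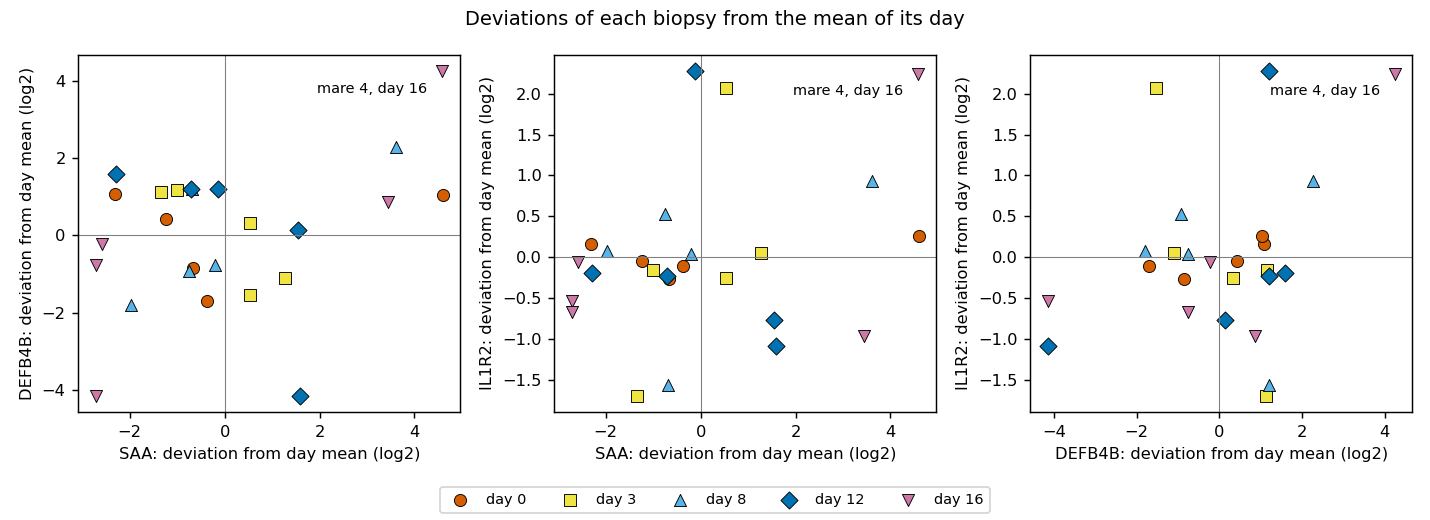
Deviation of each biopsy from the mean of its day (log2) for the 3 pairs of genes, 25 biopsies per panel, coloured by day. The biopsy of mare 4 on day 16 is at the upper right in each panel, and the correlations over all 25 are 0.36, 0.302 and 0.289.

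Among 511 other named genes, those whose levels ran most like each of the 3 over the 25 arrays were ranked by Pearson's r, which is a description of arrays that share days, mares and slides. For SAA they were MMP26, a matrix metalloprotease (r = 0.76), TLR2, a receptor for bacterial lipoproteins (0.75), CYP3A89, a cytochrome P450 (0.69), PTGER2, a receptor for prostaglandin E2 (0.68), and S100A6, a calcium-binding protein (0.67). CYP3A89 was at -6.30 on day 0, -4.98 on day 3, -0.24 on day 8, -0.63 on day 12 and -4.72 on day 16. For DEFB4B they were UBE2B, a ubiquitin-conjugating enzyme (0.84), SELENOP, a selenium carrier (0.78), RBP4, a retinol carrier (0.77), RGS2, a regulator of G protein signalling (0.77), and CAV2, a caveolin (0.76). RBP4 was at 3.83 ± 0.94 on day 12, against 0.91 ± 0.65 on day 8 (SD, n = 5 each).

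For IL1R2 the nearest genes were TPMT, a thiopurine methyltransferase (0.70), SPI2, a serine protease inhibitor (0.62), PAM, a peptide-amidating enzyme (0.62), CCL2, a monocyte chemoattractant (0.58), and RND3, a small GTPase (0.58). The values for TPMT and CCL2 leaned on mare 4 on day 16, without which r was 0.52 and 0.34. The median r over all named genes was -0.06 for SAA, 0.02 for DEFB4B and -0.01 for IL1R2.

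The wider innate defence system was described with 4 lists of 128 genes in all, of antimicrobial proteins, acute-phase and complement proteins, the IL-1 family with its receptors and inflammatory cytokines, and pattern recognition. Of these, 28 were on the array by name and 24 were bright enough to test, while IL1A, IL6, IL17A and CSF2 were too dim. In limma's F test over the 5 days, 11 of 24 passed at an adjusted p under 0.05 (ALB, CASP1, CD14, CXCL6, CXCL8, FTL, GNLY, IL1R1, IL1RN, LY96 and TLR3), against 35.8% of all tested probes. They were 3 of 4 antimicrobial, 2 of 3 acute-phase, 3 of 8 IL-1 and cytokine and 3 of 9 pattern recognition genes. The acute-phase genes tested were ALB, FTL and TF, and the lists were not split by the direction in which a gene responds in inflammation. The count was 7 without mare 2, 3 or 5, and 7 with mare and slide as terms.

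Between ovulation and day 3 every change that passed among these genes was a fall. On day 3 against day 0, 6 of 24 fell and 0 rose, against 5.66% of tested probes that fell and 7.01% that rose, and the median change of the 24 was -0.55, against -0.11 over all probes. CXCL6, a chemokine for neutrophils, fell by 3.98 ± 0.95 (SE, limma adjusted p = 0.00838). Its probe was above background on 3 of 5 arrays on day 3 and 5 of 5 on day 0, so that the size rests partly on undetected signal. CXCL8, the main neutrophil chemokine, was above background on 0 of 5 arrays on day 3 and 4 of 5 on day 0. The fitted change of CXCL8 was -2.63 ± 0.67 (limma adjusted p = 0.0133), a size not measured against detected signal. Its day 0 mean was 2.43-fold above the lowest signals well above background on the day 3 arrays. GNLY, the granulysin of cytotoxic lymphocytes, fell by 0.97 ± 0.27 (limma adjusted p = 0.0205), and ALB, FTL and CASP1 fell by 0.81 to 0.90.

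SAA, DEFB4B and IL1R2 differed by -0.61, 0.68 and -0.54 between the same days, each less than the spread between mares. MMP9, the only one of 15 neutrophil markers measured, fell as well, to -4.34 ± 1.12 on day 3, against -2.83 ± 0.94 on day 0 (SD, n = 5 each). Of 9 macrophage markers 3 were measured. LILRA, above background on 1 of 5 arrays on day 3 and 5 of 5 on day 0, fell by 2.55 ± 0.80 (SE, limma adjusted p = 0.0381), CD68 differed by -1.03 ± 0.35 (limma adjusted p = 0.0515) and CD14 by -0.29 ± 0.27 (limma adjusted p = 0.523), and their summed level, mostly CD14, ran from 0.14 to 0.58 on day 3 and from 0.13 to 1.10 on day 0. The summed level of 2 of 8 stroma markers, LUM and DCN, ran from 3.11 to 4.65 on day 3 and from 4.90 to 5.48 on day 0. These ranges did not overlap, and the share of all tested probes that separated in this way is not given. Both LUM and DCN passed in limma as lower on day 3, as did 5.66% of tested probes. The part of these cells in the fall was not tested. In fits with mare and slide as terms 0 of the 24 passed for this step, and with normexp 14 did. Without mare 1, 2, 3 or 5 the number was 3 each time, and without mare 4 it was 10.

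In the later steps few of the 24 genes passed. On day 8 against day 3, when SAA was 33.7-fold higher, 1 gene rose and 0 fell, against 6.05% of tested probes that rose and 7.72% that fell: ALB, the serum albumin gene, by 0.69 ± 0.19 (limma adjusted p = 0.0181). Whether the rise of ALB was linked to that of SAA was not tested. With the mare as a block GNLY also passed, with a change of -0.76, and without mare 1 or mare 5 no gene did. On day 12 against day 8, when DEFB4B was 29.4-fold higher, GNLY rose by 1.23 ± 0.27 (limma adjusted p = 0.0293) and FTL, a ferritin chain, by 0.90 ± 0.18 (limma adjusted p = 0.0189). These 2 of 24 stand beside 0.626% of tested probes that rose, and the median change was 0.24, against 0.06 over all probes. Neither passed without mare 1, 2, 3 or 5, or with mare and slide as terms.

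Some markers of several cell types were also higher on day 12 than on day 8. The summed level of 3 of 9 macrophage markers, mostly CD14, ran from 0.82 to 1.61 on day 12 and from -0.15 to 0.45 on day 8. These 3 did not move together, and 0 of them passed in limma. From day 8 to day 12 the mean of CD14 went from -0.12 to 0.96, that of CD68 from -3.15 to -2.95 and that of LILRA from -6.55 to -7.30. PECAM1, 1 of 6 endothelium markers, ran from 0.50 to 1.10 on day 12 and from -0.23 to 0.28 on day 8, and did not pass in limma. The share of all tested probes with ranges apart like these is not given. Of the stroma markers, the mean of LUM went from 1.19 on day 8 to 0.36 on day 12. That of DCN went from 3.50 to 3.90, and neither passed. GNLY is itself 1 of the 13 T and NK cell markers, of which 3 were measured, and CCL5, another, rose by 0.97 ± 0.24 (SE, limma adjusted p = 0.0448). Their part in the changes of GNLY, FTL or DEFB4B was not tested.

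On day 16 against day 12, when IL1R2 was higher in every mare, 1 gene rose and 0 fell, against 3.86% of tested probes that rose and 4.22% that fell. This was CXCL8 (limma adjusted p = 0.00713), with 3 of 5 arrays above background on day 16 and 0 of 5 on day 12. Its fitted log2 change was 2.93 ± 0.67, and 1.94 without mare 4, but the size was not measured against detected signal. The day 16 mean was 2.01-fold above the lowest signals well above background on the day 12 arrays. In that mean mare 4 was at -2.96 and the other mares between -8.36 and -6.30. LUM of the stroma rose by 1.64 ± 0.35 in the same step (SE, limma adjusted p = 0.00399), and its part was not tested. With the mare as a block 4 passed, which added CXCL6 (2.82), TLR3, a receptor for double-stranded RNA (0.68), and IL10, an anti-inflammatory cytokine (-1.15). CXCL6 was above background on 2 of 5 arrays on day 12. In the fit without mare 1 no gene passed. On day 16 against day 0, 0 of 24 passed in limma, against 4.71% of tested probes, and 6 had an unadjusted p under 0.05. Without mare 1 or mare 4, 2 passed in this comparison, and with normexp 6 did. These counts take 1 probe per gene, the brightest: on day 16 against day 0, 5 of the 8 other IL1RN probes and the other LY96 probe passed, and that LY96 probe passed on day 16 against day 12 too.

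**Figure D4:**
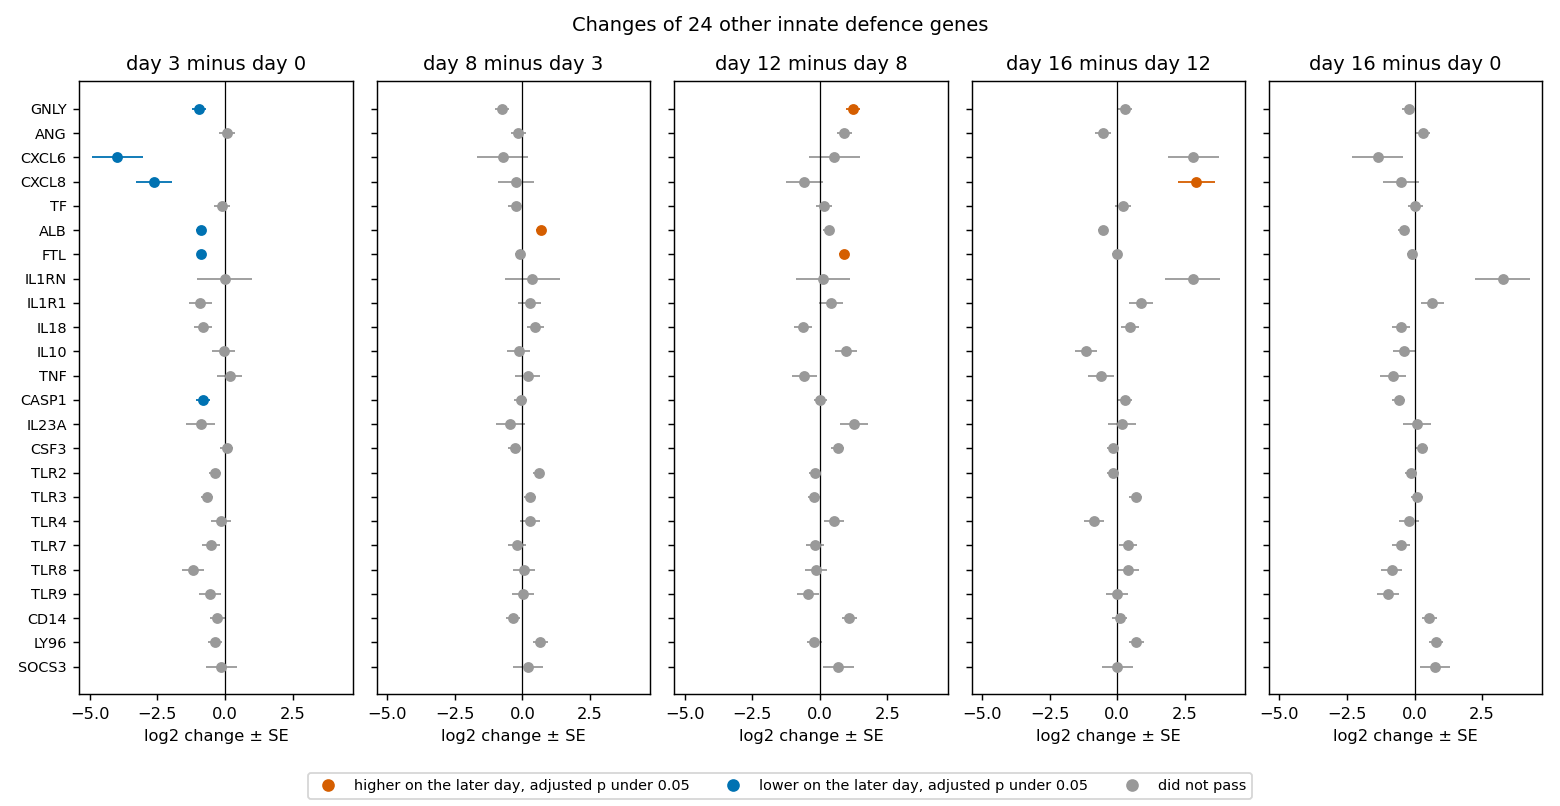
Log2 change ± SE (horizontal axis) of 24 other innate defence genes in 5 comparisons, later day minus earlier day, with coloured points for those at an adjusted p under 0.05. On day 3 minus day 0 the 6 coloured points lie below 0, and CXCL6 and CXCL8 are the farthest out.

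The IL-1 system around the decoy receptor was looked at gene by gene, a choice made after values were seen. IL1R1, the signalling receptor, was at -3.71 ± 0.60, -4.62 ± 0.77, -4.35 ± 0.28, -3.94 ± 0.71 and -3.06 ± 0.99 on days 0, 3, 8, 12 and 16 (SD, n = 5 mares each). It was higher on day 16 than on day 3 by 1.57 ± 0.43 (limma adjusted p = 0.0159) and than on day 8 by 1.30 ± 0.43 (limma adjusted p = 0.0428). On day 16 against day 12 the change was 0.88 ± 0.43 and did not pass (limma adjusted p = 0.240).

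IL1RN, the receptor antagonist, had 9 probes, of which the brightest is given, and was high in 2 of 5 mares on the last day. On day 16 mares 1 to 5 had -2.10, -1.95, -1.92, 6.08 and 2.29, while on days 0 to 12 all 20 biopsies lay between -3.41 and -1.67. The 2 high biopsies were those of mares 4 and 5, the same in which SAA and DEFB4B were at their highest for the mare. CASP1, whose enzyme matures IL-1, was 0.29 ± 0.24 higher on day 16 than on day 12, which did not pass (limma adjusted p = 0.510).

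**Figure D5:**
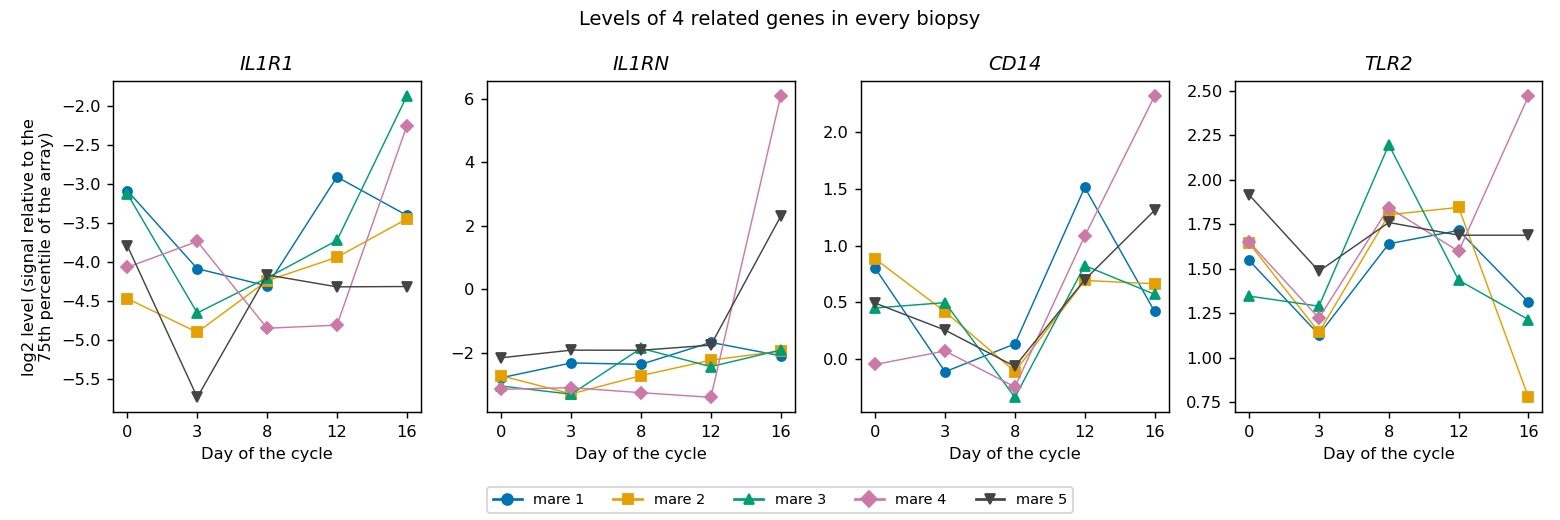
Log2 level (vertical axis, scaled separately in each panel) of IL1R1, IL1RN, CD14 and TLR2 against day of the cycle, with 1 line per mare. On day 16 IL1RN is at 6.08 in mare 4 and 2.29 in mare 5, and CD14 and TLR2 are highest of all 25 biopsies in mare 4.

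The day 16 biopsy of mare 4 held many of the highest levels. It held the highest level of 25 biopsies for 11 of the 24 genes (CASP1, CD14, CXCL6, CXCL8, IL1RN, IL23A, LY96, SOCS3, TLR2, TLR3 and TLR4) and for both DEFB4B probes and IL1R2, while SAA was highest in mare 3 on day 8. Of all 35770 tested probes, 8.29% were highest in this biopsy. The next biopsy, mare 5 on day 0, held the highest level of 4 genes (IL18, TF, TLR7 and TLR9), and each of the other 23 held that of 2 or fewer. In mare 4 on day 16 the summed level of the 3 measured macrophage markers was 2.36, against 0.62 to 1.35 in the other mares that day. Nearly all of it was CD14, at 2.32 and itself 1 of the 11 genes, while CD68 was at -2.85, below mare 1 at -2.53. The stroma sum of 5.20 and PECAM1 at 0.79 were the highest of day 16 too. MMP9 was at -3.34 there, the highest of day 16, where the lowest was -5.27 and the median -4.91. The 3 measured T and NK cell markers, GNLY, GZMB and CCL5, summed to 2.97 there, near the lowest of day 16 at 2.92. The part of these cells, or of the brightness of this array, in these levels was not tested. Without this biopsy, 2 genes in place of 1 passed on day 8 against day 3 and on day 16 against day 12, and 1 in place of 0 on day 16 against day 0.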

How the data were processed

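Each array's file holds intensities as deposited, from which, per the file headers, version 10.7.3.1 of Agilent Feature Extraction had already removed background. Those headers record no scaling across arrays. Per the labels, Trizol was used for extraction and Cy3 as the dye. In all 25 arrays the series' value table held the same numbers as the processed signal.

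From these deposited intensities, log2 values minus each array's 75th percentile were computed. Spots marked as outliers by the scanner software were set to missing and spots of 1 probe were averaged. This scaling assumes that the 75th percentile does not change with the day. Tests covered probes that exceeded background clearly on 4 or more of the 5 arrays of any day. Of 43603 probes, 1307 were matched by RefSeq accession to 620 gene symbols of a newer horse annotation. SAA was matched by its own accession. Its neighbouring gene SAA1 had no probe by its accession, and whether its RNA binds the SAA probe was not tested.

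limma 3.58.1 in R 4.3.3 was fitted to all 25 arrays and 35770 probes with day as the term, two-sided, and p-values were adjusted by Benjamini-Hochberg over all probes of a comparison, with calls at an adjusted p under 0.05. A gene is given by its probe with the highest mean level. Where a probe was above background on no array of a day, a fold is given against the lowest signals well above background on those arrays. This is not a strict bound, since probes not well above background could lie above that signal. The test was checked on simulated data. The number of arrays limits the precision. Permutations (100000) and tables used Python 3.11.15 with numpy 2.4.6, scipy 1.17.1 and pandas 2.3.3.

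Replicate numbers are the mares in the labels. Deviations from the day means correlated at a median of 0.245 between arrays of 1 mare (50 pairs), 0.120 where these lay on different slides (26 pairs) and -0.047 between different mares on different days (200 pairs). Mare and slide were therefore tried as terms, as were quantile scaling, normexp background correction (offset 50, in which marked local backgrounds were replaced by the array's median), other filters, and leaving out single arrays and mares.

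The genes and the lists were chosen with earlier results of these data known. The rule for names was every probe of the 3 genes, the 5 genes most correlated with each, and up to 4 genes called per list and comparison, by size.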

Additional observations from a re-analysis of the deposited data

Results flagged for a closer look

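A value was set apart where its gap to the nearest of the 5 mares of that day took up more than 0.71 of the day's whole range (Dixon's limit for 5 values). Of 20 combinations of probe and day examined, 5 met this, and DEFB4B in mare 5 on day 12 counts once for each of its probes. The genes were chosen by these levels, so the count is a description and is not set against chance. SAA in mare 5 on day 0 was at -0.37, against -5.34 for the next mare. DEFB4B in mare 5 on day 12 was at -4.01 by the first probe, with the next mare at 0.28, and at -4.68 by the second, with the next at -0.25. IL1R2 in mare 4 was at -5.07 on day 12, with the next mare at -7.54, and at -2.95 on day 16, with the next at -5.25. Without that biopsy, SAA on day 3 was 0.54 above day 0, DEFB4B on day 12 was 5.91 above day 8, and IL1R2 on day 16 was 2.73 above day 12 (day 12 biopsy left out) or 1.60 above it (day 16 biopsy left out).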

How the results depend on the processing

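The differences of SAA, DEFB4B and IL1R2 moved by less than 1 SD between mares in 314 recomputations and by more in 1, which was IL1R2 on day 16 against day 12, at 0.59 with normexp in place of 2.16. This SD was wide enough to hold changes of sign. SAA on day 3 minus day 0, at -0.61, ran from -1.32 to 0.54 when arrays or mares were left out. For DEFB4B the same difference changed sign with slide as a term and with normexp, as given above. Leaving out single arrays or mares gave 3.92 to 5.70 for SAA on day 8 against day 3, 4.03 to 5.91 for DEFB4B on day 12 against day 8 and 1.60 to 2.73 for IL1R2 on day 16 against day 12.

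For the 24 other defence genes, the mare as a replicate block gave 2 calls in place of 1 on day 8 against day 3 and 4 in place of 1 on day 16 against day 12. It moved no other count by over 1.5 times. Mare with slide gave 7 in place of 11 in the F test, 0 in place of 6, 1 and 2 on day 3 against day 0, day 8 against day 3 and day 12 against day 8, and 2 in place of 1 on day 16 against day 12, where slide alone gave 3. Quantile scaling gave 3 on day 8 against day 3 and 2 on day 16 against day 12. Normexp gave 14 on day 3 against day 0 and 6 in place of 0 on day 16 against day 0. With the stricter filter 0 passed on day 16 against day 12, since CXCL8 was then not tested. The calls of these 4 lists thus depended on how slide and mare were handled, and the cause was not tested.

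Leaving out replicates gave 7 to 11 calls in the F test, 3 to 10 on day 3 against day 0, 0 to 2 on day 8 against day 3, 0 to 3 on day 12 against day 8, and 0 to 2 on day 16 against day 12 and against day 0. These ranges include leaving out mare 4 on day 16, and mare 2 on day 0 with mare 4 on day 3, which were chosen after seeing the data. Over all probes the counts ran from 7503 to 15514 in the F test (12790 as reported), 732 to 8524 on day 3 against day 0 (4533), 3090 to 6037 on day 8 against day 3 (4927), 0 to 855 on day 12 against day 8 (392), 1253 to 3996 on day 16 against day 12 (2888) and 108 to 7896 on day 16 against day 0 (1683).

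The within-day correlation of SAA and IL1R2 was 0.502 with the mare as a replicate block, 0.507 with slide and 0.596 with both. That of SAA and DEFB4B was 0.602 with both. The permutations of these fits did not allow for the terms removed, so that no call is drawn from them. Leaving out replicates gave 0.15 to 0.56 for SAA and DEFB4B, 0.084 to 0.53 for SAA and IL1R2 and -0.059 to 0.48 for DEFB4B and IL1R2. IL1R2 was limited by signal over background, with 17 of 25 arrays well above it.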
